A study of Homo sapiens with 6 samples.

Results

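The NRF2 pathway and the antioxidant enzymes it governs were followed in HCT116 cells, an established human colon cancer line, after depletion of ADNP, a nuclear protein with zinc fingers and a homeodomain that acts on chromatin. The members are 9 genes, chosen by symbol from the 23368 gene symbols of the count table: NFE2L2, KEAP1, NQO1, HMOX1, GCLC, GCLM, TXNRD1, TXN and SRXN1. All 9 were found, and all 9 had enough reads to be tested. The cells had received an siRNA against ADNP (siADNP, 3 libraries) or a control siRNA (siControl, 3 libraries), and both groups are the same line with no other treatment in the labels. The sources used here give neither the siRNA sequences nor their dose or the time after transfection. The labels speak of biological replicates without naming the cultures, and the p-values below rest on the spread among these 6 libraries, some of which may be technical.

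NFE2L2 encodes NRF2, a basic leucine zipper transcription factor that pairs with small MAF proteins on antioxidant response elements. KEAP1 is a cysteine-rich adaptor of a CUL3 ubiquitin ligase that keeps NRF2 short-lived until oxidants or electrophiles modify it. The enzymes under this switch reduce quinones (NQO1), break down heme (HMOX1), make glutathione (GCLC and GCLM) and run the thioredoxin cycle (TXN, TXNRD1 and SRXN1). In colon epithelium and its cancers the pathway is known for its part in resistance to oxidants and drugs.

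The antioxidant response element core, TGACNNNGC, was looked for on both strands of the RefSeq promoter windows (build GRCh38.p14), which run from 250 bases before to 50 bases after each annotated start. Of the 9 members, 8 were in that table, with 11 windows between them, and HMOX1 was not. A match stood in 4 of the 11 windows, those of TXNRD1 and GCLM and the downstream window of KEAP1. It stood in 13.3% of all 35116 windows. The 4 windows are shown because they hold the letters of this core, and because their genes had different test results below. Whether these letters act as elements, or bear on the results, was not tested. TXNRD1 was called lower with siADNP, while GCLM and KEAP1 did not pass the test. A difference in response between GCLM and TXNRD1 was not shown. The interval of GCLM's log2 fold change, from -0.36 to 0.05, includes the -0.22 of TXNRD1. Capitals mark each match, on either strand. The windows are chr12:104215529-104215828 (plus strand) and chr12:104286782-104287081 (plus strand) for TXNRD1, chr1:93909381-93909680 (minus strand) for GCLM and chr19:10502722-10503021 (minus strand) for KEAP1.
TXNRD1, upstream start: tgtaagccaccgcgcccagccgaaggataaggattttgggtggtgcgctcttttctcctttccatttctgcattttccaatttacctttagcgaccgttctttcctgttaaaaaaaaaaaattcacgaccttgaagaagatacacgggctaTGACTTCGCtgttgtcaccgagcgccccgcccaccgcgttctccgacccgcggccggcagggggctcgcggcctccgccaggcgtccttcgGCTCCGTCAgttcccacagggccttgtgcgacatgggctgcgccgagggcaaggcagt
TXNRD1, downstream start: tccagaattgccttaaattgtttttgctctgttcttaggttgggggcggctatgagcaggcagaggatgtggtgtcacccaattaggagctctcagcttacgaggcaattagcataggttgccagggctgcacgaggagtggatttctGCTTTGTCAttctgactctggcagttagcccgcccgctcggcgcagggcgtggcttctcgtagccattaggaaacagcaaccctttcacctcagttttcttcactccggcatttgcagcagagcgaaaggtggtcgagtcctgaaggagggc
GCLM: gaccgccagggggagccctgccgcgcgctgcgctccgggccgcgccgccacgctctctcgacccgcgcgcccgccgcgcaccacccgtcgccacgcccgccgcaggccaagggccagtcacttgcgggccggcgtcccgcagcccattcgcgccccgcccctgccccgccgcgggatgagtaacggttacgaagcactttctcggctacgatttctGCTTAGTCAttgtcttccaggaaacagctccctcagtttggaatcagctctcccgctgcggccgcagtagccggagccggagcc
KEAP1: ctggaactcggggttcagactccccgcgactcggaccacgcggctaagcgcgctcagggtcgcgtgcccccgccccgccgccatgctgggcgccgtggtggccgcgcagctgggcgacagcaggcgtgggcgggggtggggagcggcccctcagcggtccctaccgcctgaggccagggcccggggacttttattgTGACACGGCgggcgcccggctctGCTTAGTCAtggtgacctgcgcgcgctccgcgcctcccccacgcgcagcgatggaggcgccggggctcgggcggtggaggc

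The upstream TXNRD1 window held TGACTTCGC on the gene's strand, from 99 to 91 bases before the start, and TGACGGAGC on the other strand, across the start itself. The downstream TXNRD1 window held TGACAAAGC on the other strand, from 102 to 94 bases before the start. GCLM and the KEAP1 window shared the same 9 bases, TGACTAAGC, on the strand opposite to the gene, from 34 to 26 bases before the start in GCLM and from 31 to 23 in KEAP1. The KEAP1 window also held TGACACGGC on the gene's strand, from 54 to 46 bases before the start. The upstream KEAP1 window and the windows of NFE2L2, NQO1, GCLC, TXN and SRXN1 did not hold these letters. This says nothing about elements outside the windows.

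Reads assigned to genes numbered 7396771 to 8726017 in the siADNP libraries and 8282290 to 10265175 in the siControl libraries. Levels are CPM, reads divided by the size of the library, which was first scaled by TMM, a factor that evens out differences in library composition. ADNP mRNA was at 46.7, 55.3 and 59.8 CPM in the siADNP libraries and at 171, 155 and 167 CPM in the siControl libraries, which matches the labels in all 6. Of the 8 colon epithelial markers, 6 were testable, with a summed level of 3017 to 3229 CPM with siADNP and 3126 to 3190 CPM with siControl. CDX1 and VIL1 had no reads in any library. The summed levels of 6 fibroblast markers were 7.59 to 10.3 CPM with siADNP and 7.48 to 8.20 CPM with siControl, and those of 6 blood markers, nearly all CD68, were 9.40 to 10.5 and 7.11 to 7.62 CPM. CD68 rose (log2 fold change 0.42, adjusted p = 0.0366, edgeR) and KRT19 fell (-0.15), and their part in the results was not tested. PTPRC, the marker of all leukocytes, had 7 reads in all siADNP libraries together and 6 in all siControl libraries, and the summed endothelial markers reached at most 1.01 CPM in a library. In bulk RNA, fewer cells of a type and less RNA per cell cannot be told apart.

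Across the members, 6 of 9 were lower with siADNP, 1 was higher and 2 did not pass, at an adjusted p under 0.05 in edgeR's quasi-likelihood test over all 12489 tested genes. Among all tested genes 13.7% were called lower and 14.6% higher, 28.3% in all. The members were chosen with earlier results of these data known, so these shares are no test of the set. SRXN1, TXN, TXNRD1, GCLC, NQO1 and NFE2L2 were the members that fell, by a modest amount each, to between 77.1% and 89.8% of the control level. HMOX1 was the member that rose, to 1.23-fold. The median log2 fold change of the 9 was -0.17, against -0.0013 over all tested genes, and 8 of the 9 values were below 0. In the same 7 genes the siADNP and siControl libraries did not overlap, 6 with siADNP below and 1 above. Of all tested genes 40.8% were without overlap, 20.7% downward and 20.1% upward.

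**Figure D1:**
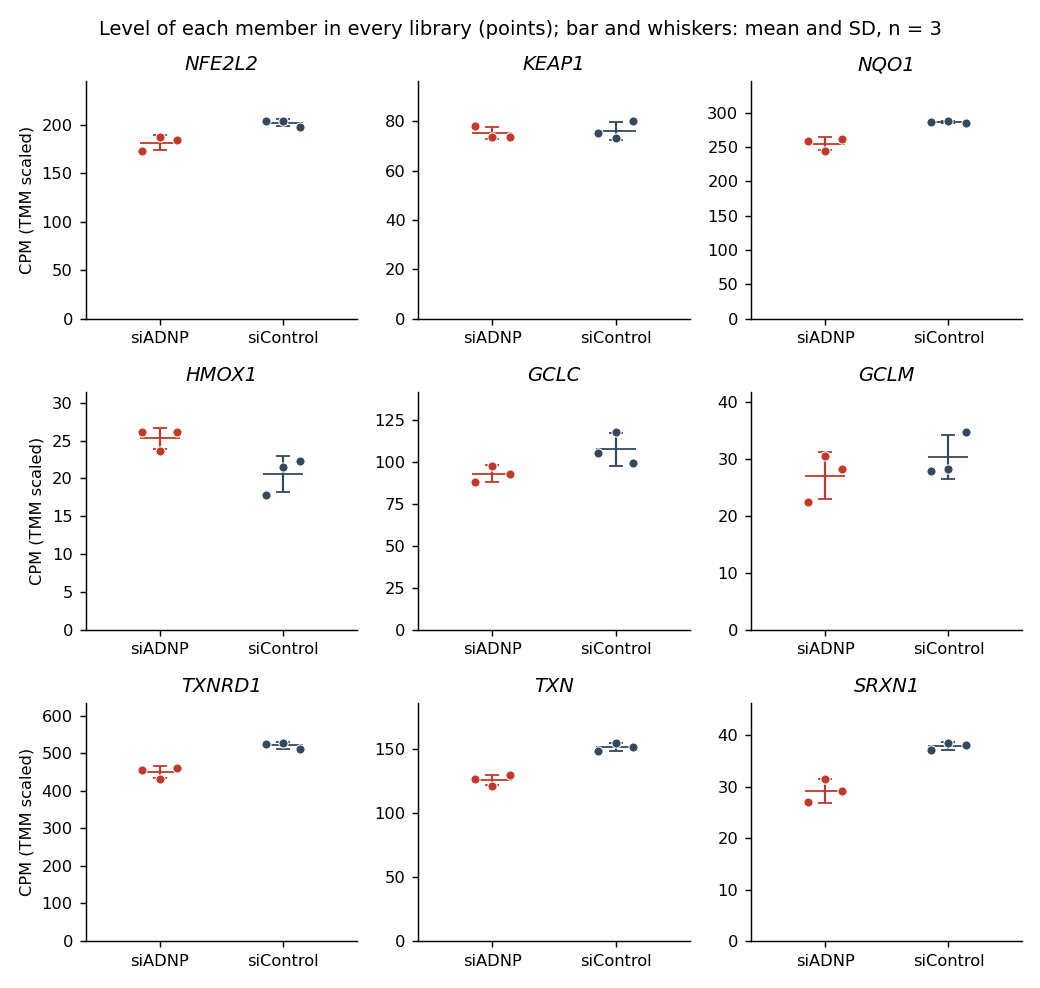
Level of each of the 9 members in every library, in TMM-scaled CPM on axes that start at 0, with siADNP on the left and siControl on the right of each panel. Points are libraries, and the bar with whiskers is the mean and SD of 3. The siADNP points lie below all siControl points for NFE2L2, NQO1, GCLC, TXNRD1, TXN and SRXN1 and above them for HMOX1. For KEAP1 and GCLM the groups overlap.

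NFE2L2, the transcription factor itself, was at 173, 187 and 185 CPM in the siADNP libraries, against 204, 205 and 198 CPM in the siControl libraries. Every siADNP library was below every siControl library, and the groups came closest between siADNP replicate 2 and siControl replicate 3. Its means were 182 ± 7.50 CPM with siADNP and 203 ± 3.52 CPM with siControl (SD, n = 3 each), a log2 fold change of -0.16 ± 0.05 (SE; adjusted p = 0.0177, edgeR). NFE2L2 thus fell to 89.8% of control. The call ended without siADNP replicate 1 (adjusted p = 0.0979), without siControl replicate 1 (0.0668) or without siControl replicate 2 (0.0697), over a range of 0.0126 to 0.0979 in 16 alternatives. In GENCODE v29, exons of AGPS and of an antisense transcript on the other strand overlap exons of NFE2L2. Exons of another transcript on the same strand overlap them too. No source used here says whether the counting used strand.

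KEAP1, the inhibitor of NRF2, was at 78.1, 73.7 and 73.8 CPM with siADNP and at 75.2, 73.1 and 80.3 CPM with siControl. The groups overlapped fully, with the lowest and the highest of the 6 libraries both siControl. The log2 fold change was -0.02 ± 0.06 (SE; adjusted p = 0.868, edgeR), and 0.0071 with upper-quartile scaling and 0.02 without siControl replicate 3. Its 95% interval ran from -0.14 to 0.11, which leaves out the estimates of the 6 members that fell. KEAP1 was at -0.11 (adjusted p = 0.170), nearer to those members, when each library's trend with GC content was removed (the GC offset). KEAP1 has a GC content of 60.3%, the highest of the members.

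NQO1, the quinone reductase often used as a readout of NRF2, was at 258, 244 and 262 CPM in the siADNP libraries and at 286, 288 and 284 CPM in the siControl libraries. The siControl values lay within 4.03 CPM of each other, and the siADNP values were all lower. The means were 255 ± 9.52 CPM with siADNP and 286 ± 2.02 CPM with siControl (SD, n = 3 each). NQO1 fell with a log2 fold change of -0.17 ± 0.05 (SE; adjusted p = 0.00694, edgeR), and it was called lower in all 16 alternatives. An antisense transcript overlaps its exons in GENCODE v29.

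HMOX1, heme oxygenase 1, which opens heme into biliverdin, iron and carbon monoxide, moved the other way. It was at 26.1, 23.7 and 26.2 CPM with siADNP and at 17.8, 21.5 and 22.3 CPM with siControl. The groups did not overlap, but siADNP replicate 2 and siControl replicate 3 were only 1.37 CPM apart, and siControl replicate 1 was the lowest of its group. The means were 25.3 ± 1.41 CPM with siADNP and 20.6 ± 2.40 CPM with siControl (SD, n = 3 each), a log2 fold change of 0.30 ± 0.10 (SE; adjusted p = 0.0252, edgeR). With 159 to 219 reads per library it was among the least covered members, and counting alone gives an error of up to 7.93% in a library. The call ended in DESeq2's Wald test (adjusted p = 0.123), with a GC offset (0.111, log2 fold change 0.22), and without siADNP replicate 1 (0.0792), siADNP replicate 3 (0.0762) or siControl replicate 1 (0.183), over a range of 0.0168 to 0.183 in 16 alternatives.

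GCLC and GCLM are the catalytic and the modifier subunit of glutamate-cysteine ligase, the rate-limiting enzyme of glutathione synthesis. GCLC was at 88.4, 98.1 and 93.3 CPM with siADNP and at 105, 118 and 99.5 CPM with siControl. The siADNP libraries were all lower, with siADNP replicate 2 just under siControl replicate 3. GCLC fell to 86.5% of control, with means of 93.2 ± 4.86 CPM with siADNP and 108 ± 9.61 CPM with siControl (SD, n = 3 each) and a log2 fold change of -0.21 ± 0.06 (SE; adjusted p = 0.00965, edgeR). The call ended without siControl replicate 2, the highest library (adjusted p = 0.156, log2 fold change -0.13), and without siADNP replicate 1 (0.0672), in a range of 0.00284 to 0.156 over 16 alternatives. Exons of a non-coding and of an antisense transcript overlap GCLC in GENCODE v29.

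GCLM was at 22.5, 30.5 and 28.2 CPM in the siADNP libraries and at 27.9, 28.2 and 34.7 CPM in the siControl libraries. The groups overlapped, and the spread within them was the widest of the 9 members in relative terms, with an SD of 15.2% of the mean with siADNP and 12.7% with siControl. The log2 fold change was -0.15 ± 0.10 (SE; adjusted p = 0.270, edgeR). Its 95% interval, from -0.36 to 0.05, includes both the value of GCLC and 0. GCLM had 175 to 288 reads per library. It has the lowest GC content of the members, 37.3%, and with the GC offset its log2 fold change was -0.08 (adjusted p = 0.621, edgeR). Leaving out 1 library at a time gave -0.25 without siADNP replicate 2 to -0.04 without siADNP replicate 1.

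TXN, cytosolic thioredoxin, carries electrons to peroxiredoxins and ribonucleotide reductase. It was at 127, 121 and 129 CPM with siADNP and at 148, 154 and 151 CPM with siControl. The gap between the groups, 19.2 CPM, was wider than the range within either. The means were 126 ± 4.09 CPM with siADNP and 151 ± 3.00 CPM with siControl (SD, n = 3 each). TXN fell to 83.0% of control, with a log2 fold change of -0.27 ± 0.05 (SE; adjusted p = 0.000143, edgeR), and had the smallest p of the members. GENCODE v29 names 7 TXN pseudogenes, and reads without a unique alignment are not in the gene counts, so its level may be understated in all libraries.

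TXNRD1, the selenoprotein that recharges thioredoxin with electrons from NADPH, was the member with the most reads, 3395 to 5370 per library. It was at 457, 431 and 460.3 CPM in the siADNP libraries and at 527, 528 and 511 CPM in the siControl libraries. Both groups were tight and well apart. TXNRD1 fell to 86.1% of control, with means of 449.6 ± 15.9 CPM with siADNP and 522 ± 9.46 CPM with siControl (SD, n = 3 each) and a log2 fold change of -0.22 ± 0.05 (SE; adjusted p = 0.000512, edgeR). TXN and TXNRD1 were called lower in all 16 alternatives, with adjusted p up to 0.00530 and 0.0104.

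SRXN1, sulfiredoxin, which repairs over-oxidized peroxiredoxins, fell the most of the members. It was at 27.0, 31.5 and 29.1 CPM with siADNP and at 37.1, 38.6 and 38.2 CPM with siControl. The siControl libraries were close together and all siADNP libraries lay below them. The means were 29.2 ± 2.26 CPM with siADNP and 38.0 ± 0.758 CPM with siControl (SD, n = 3 each), a log2 fold change of -0.38 ± 0.08 (SE; adjusted p = 0.000641, edgeR). SRXN1 thus stood at 77.1% of control, and 5.73% of all tested genes had a lower log2 fold change. It was called lower in all 16 alternatives, with an adjusted p up to 0.00830 and a log2 fold change between -0.44 and -0.22, the smallest in size being on the shrunken scale of the deposited log2 values. A gene on the same strand shares exons with SRXN1 in GENCODE v29.

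**Figure D2:**
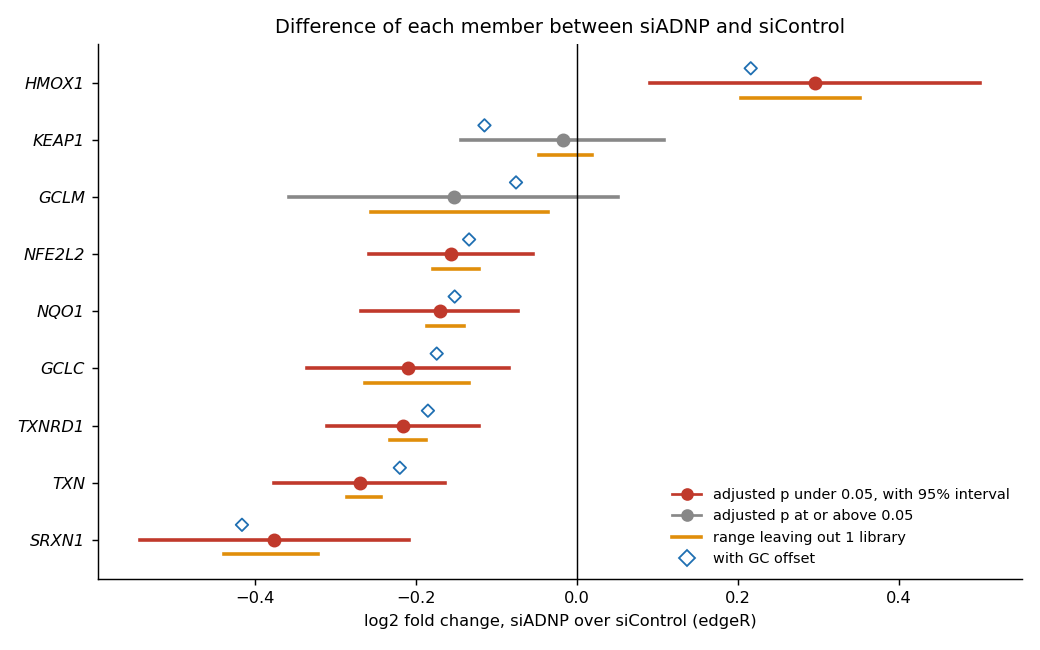
Log2 fold change of each member, siADNP over siControl, on the x axis, from highest at the top to lowest. Dots and lines are edgeR's estimate with its 95% interval, orange lines the range when 1 library is left out, and open diamonds the estimate with a GC offset. SRXN1 lies lowest at -0.38 and HMOX1 highest at 0.30, and the intervals of KEAP1 and GCLM include 0.

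The falls were small next to that of the siRNA's target. ADNP stood at 32.9% of control (log2 fold change -1.61 ± 0.07, SE; adjusted p = 2.62e-20, edgeR), while 11.2% of all tested genes had a lower log2 fold change than TXN, 16.0% a lower one than TXNRD1 and 23.2% a lower one than NFE2L2. The 95% intervals of the 6 members that fell overlapped each other, from -0.54 for the lower bound of SRXN1 to -0.05 for the upper bound of NFE2L2, and none overlapped that of HMOX1, from 0.09 to 0.50. GC content moved with the calls of the whole table, with medians of 43.0% in genes called lower, 54.0% in genes called higher and 48.6% in the others. Of the members that fell, 5 have a GC content between 42.8% and 46.0% and SRXN1 has 53.6%, and HMOX1 has 58.1%. With a GC offset the same 6 members were called lower. TXN was then at -0.22, TXNRD1 at -0.18, GCLC at -0.17, NQO1 at -0.15 and NFE2L2 at -0.13, each smaller in size than without the offset. SRXN1 was larger in size, at -0.42. The adjusted p of NFE2L2 was 0.0407, and HMOX1, at 0.22, was no longer called (adjusted p = 0.111, edgeR).

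Per kilobase of exon, which allows levels of different genes to be compared, the members spanned a wide range. TXN was the most abundant, at 145 ± 4.71 CPM per kilobase with siADNP and 174 ± 3.46 with siControl (SD, n = 3 each). TXNRD1 and NQO1 followed, at 89.1 ± 3.16 and 81.5 ± 3.05 CPM per kilobase with siADNP and at 103 ± 1.87 and 91.6 ± 0.646 with siControl. NFE2L2 was at 40.1 ± 1.66 CPM per kilobase with siADNP and 44.7 ± 0.777 with siControl, and KEAP1 at 23.8 ± 0.795 and 24.2 ± 1.17. GCLC was at 14.6 ± 0.762 CPM per kilobase with siADNP and 16.9 ± 1.51 with siControl. SRXN1 and HMOX1 changed places, with SRXN1 at 10.8 ± 0.837 and HMOX1 at 13.9 ± 0.776 CPM per kilobase with siADNP, and SRXN1 at 14.1 ± 0.281 and HMOX1 at 11.3 ± 1.31 with siControl. GCLM was lowest, at 5.52 ± 0.840 with siADNP and 6.18 ± 0.784 with siControl.

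The library ranges of neighbours in this order overlapped for GCLC and HMOX1 with siADNP, and were apart for the other neighbours in both groups. The order depends on the lengths used. With the longest transcript in place of the union of exons, an alternative chosen after seeing the data, GCLC at 28.2 CPM per kilobase stood above KEAP1 at 25.8 in siControl, and NFE2L2 stood at 71.0.

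**Figure D3:**
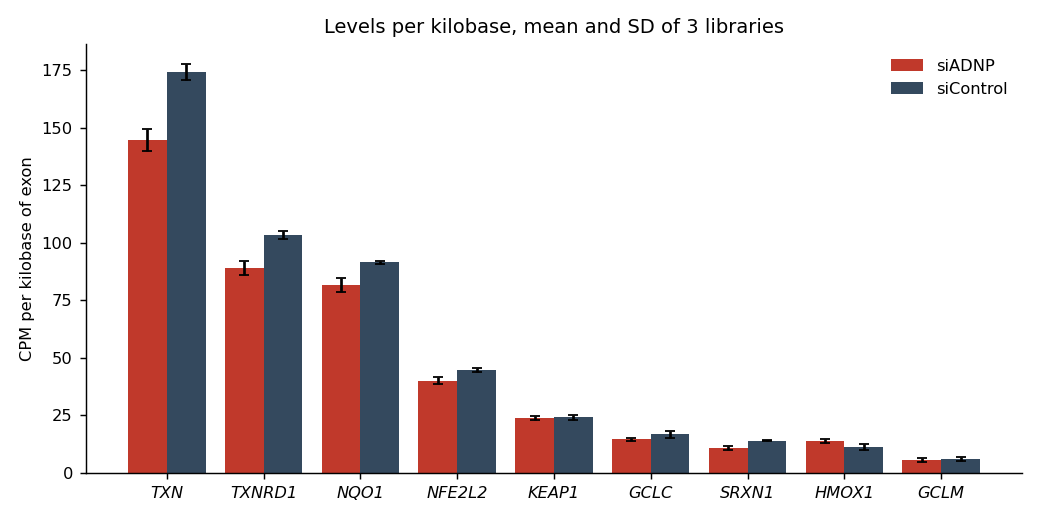
Level of each member in CPM per kilobase of exon, with siADNP left of siControl in each pair. Bars are means and whiskers SDs of 3 libraries, on an axis that starts at 0. TXN is highest, at 145 with siADNP and 174 with siControl, and GCLM lowest, at 5.52 and 6.18.

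Across the 6 libraries, the genes whose centred log2 CPM lay closest to that of TXN, the member with the smallest p, were DKK1, C11orf46 and IMPDH2, out of 7557 other tested genes that averaged 20 CPM or more. The root mean square differences were 0.0159, 0.0172 and 0.0183 on the log2 scale. DKK1, a secreted inhibitor of WNT signalling, was at 296, 288 and 299 CPM with siADNP and at 348, 359.7 and 346 CPM with siControl. IMPDH2, an enzyme of guanine nucleotide synthesis, averaged 430.1 ± 13.3 CPM with siADNP and 527 ± 12.8 CPM with siControl (SD, n = 3 each).

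The regulators around NRF2 were mixed. Of 19 listed genes, all tested, 2 rose, 3 fell and 14 did not pass, 26.3% called in all, near the 28.3% of all tested genes, and their median log2 fold change was -0.03. SQSTM1, the autophagy receptor p62 that binds KEAP1 and is itself an NRF2 target, fell with a log2 fold change of -0.25 ± 0.05 (SE; adjusted p = 9.44e-05, edgeR), averaging 308 ± 1.37 CPM with siADNP and 365 ± 4.36 CPM with siControl (SD, n = 3 each). PALB2, a BRCA2 partner that can bind KEAP1, fell with -0.31. NFE2L3, a relative of NRF2 from the same family, rose with 0.48 ± 0.08 (SE; adjusted p = 1.74e-05, edgeR), at 47.3, 49.8 and 47.3 CPM with siADNP and 30.0, 37.4 and 36.2 CPM with siControl. CREBBP, an acetyltransferase and coactivator, rose with 0.19 but was not called without siADNP replicate 1 (adjusted p = 0.0836) or siControl replicate 2 (0.0525) or with the GC offset (0.0733).

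The other genes listed as NRF2 targets moved in both directions. NRF2 targets placed in other lists, such as SQSTM1, which fell, are not counted here. The counts and the median below therefore hold for this list only. Of 30 listed, 21 were tested, with 6 rises, 2 falls and 13 not passing, and their log2 fold changes had a median of 0.08. Called genes made up 38.1%, against 28.3% of all tested genes. SLC7A11 and SLC3A2, the light and heavy chain of the cystine importer that feeds glutathione synthesis, rose with 0.38 ± 0.06 and 0.26 ± 0.05 (SE; adjusted p = 1.84e-05 and 7.40e-05, edgeR). SLC7A11 was at 119, 138 and 122 CPM with siADNP and at 89.1, 107 and 94.9 CPM with siControl, without overlap. Both chains are also induced by ATF4. ABCC4, a drug and nucleotide exporter, rose with 0.49, and EPHX1, microsomal epoxide hydrolase, with 0.36. The 2 falls, TRIM16L with -0.41 and NQO2 with -0.21, were not called in DESeq2's Wald test or with upper-quartile scaling.

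Genes of the glutathione system numbered 27 tested of 36 listed, with 7 rises, 3 falls and 17 not passing, 37.0% called against 28.3% of all tested genes. Their median log2 fold change was 0.06. CHAC1, which degrades glutathione and is a known ATF4 target, rose with 0.99 ± 0.17 (SE; adjusted p = 2.64e-05, edgeR). Its libraries overlapped, at 20.9, 30.7 and 29.1 CPM with siADNP and 9.19, 21.1 and 9.28 CPM with siControl, and DESeq2's Wald test did not call it (adjusted p = 0.0871). Its log2 fold change was 1.55 without siControl replicate 2. The endoplasmic reticulum peroxidase GPX8 and glutaredoxin GLRX rose with 0.29 and 0.41, and MGST3, a microsomal glutathione transferase, fell with -0.31. GLRX was not called without siADNP replicate 3 (adjusted p = 0.0531). DESeq2 called 3 rises in this list in place of 7.

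Around thioredoxin, 3 of 19 tested partners, peroxiredoxins and methionine sulfoxide reductases rose, 2 fell and 14 did not pass. That is 26.3% called, near the 28.3% of all tested genes, and their log2 fold changes had a median of -0.0032. The peroxiredoxins PRDX2 and PRDX4 rose with 0.33 ± 0.06 and 0.23 ± 0.07 (SE; adjusted p = 7.60e-05 and 0.00829, edgeR), and the reductase MSRB3 with 0.55. PRDX4 was not called in DESeq2's Wald test (adjusted p = 0.0552). PRDX2 averaged 102 ± 5.77 CPM with siADNP and 81.3 ± 4.80 CPM with siControl (SD, n = 3 each). SESN1, a sestrin and known p53 target, fell with -0.39 and was called in all 16 alternatives. PRDX1, a substrate of SRXN1, fell with -0.12, close to the threshold (adjusted p = 0.0452, edgeR). It was not called with DESeq2, upper-quartile scaling, library totals or the replicate block, nor without siADNP replicate 1 or siControl replicate 2. SESN1 was then the only fall in this list. The counts of this list shifted with scaling, to 5 rises and 1 fall with upper-quartile scaling, and to 4 falls with the GC offset.

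Of 9 tested superoxide dismutases, metallothioneins and catalase, 3 rose, 2 fell and 4 did not pass. That is 55.6% called, against 28.3% of all tested genes, and the median log2 fold change was 0.06. Mitochondrial superoxide dismutase SOD2 rose with 0.29 ± 0.07 (SE; adjusted p = 0.000883, edgeR), averaging 63.4 ± 1.77 CPM with siADNP and 51.8 ± 1.57 CPM with siControl (SD, n = 3 each). Catalase (CAT) fell with -0.21 and was not called without siControl replicate 2 (adjusted p = 0.0617). The metallothioneins MT1F and MT1E, which bind zinc and other metals, moved with 1.18 and -0.19. The remaining rise was that of MT1X, with 0.31 (adjusted p = 0.0173, edgeR), which DESeq2 did not call. MT2A did not pass. Reads without a unique alignment among these near-identical genes are not in the gene counts, so their levels may be understated. MT1F was weakly expressed, at 2.62 CPM with siADNP and 1.14 CPM with siControl on average, and was not called without siADNP replicate 1 (adjusted p = 0.0505) or in DESeq2's Wald test (0.0561), nor MT1E without siADNP replicate 2 (0.0815) or siControl replicate 1 (0.110).

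Genes of heme and iron handling included more falls than rises. Of 15 listed, all tested, 6 fell, 1 rose and 8 did not pass, against 13.7% of all tested genes called lower, and their log2 fold changes had a median of -0.04. BLVRA and BLVRB, the biliverdin reductases that act on the product of HMOX1, fell with -0.34 ± 0.09 and -0.37 ± 0.07 (SE; adjusted p = 0.00426 and 8.05e-05, edgeR). BLVRB was at 54.2, 53.2 and 55.0 CPM with siADNP and at 74.3, 72.3 and 62.7 CPM with siControl, without overlap. FTH1, the ferritin heavy chain that stores iron, fell with -0.29 ± 0.05 (SE; adjusted p = 1.38e-05, edgeR), averaging 1056 ± 50.9 CPM with siADNP and 1292 ± 62.1 CPM with siControl (SD, n = 3 each). NCOA4, the receptor that delivers ferritin to autophagy, fell with -0.30. The rise was that of the weakly expressed iron exporter SLC40A1, with 0.94, whose libraries overlapped and which DESeq2 did not call. BLVRA was not called without siADNP replicate 3 (adjusted p = 0.0645), and the count of falls was then 3.

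The enzymes that supply NADPH, on which TXNRD1 and NQO1 depend, showed 1 rise and 1 fall among 11 tested. That is 18.2% called, against 28.3% of all tested genes, and their log2 fold changes had a median of -0.02. Cytosolic isocitrate dehydrogenase IDH1 rose with 0.48 ± 0.05 (SE; adjusted p = 6.38e-09, edgeR), at 176, 192 and 184 CPM with siADNP and 136, 133 and 128 CPM with siControl. Transketolase TKT, of the pentose phosphate pathway, fell with -0.17. Of 8 genes that make selenoproteins such as TXNRD1, SECISBP2L rose, with 0.20 (adjusted p = 0.0136, edgeR), and 7 did not pass. The share called was 12.5%, also under that of all tested genes, and the log2 fold changes of the 8 had a median of 0.01. SECISBP2L was not called without siADNP replicate 2 (0.0519) or siControl replicate 3 (0.0820) or in DESeq2's Wald test (0.0638), in a range of 0.00112 to 0.0820 over its alternatives.

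**Figure D4:**
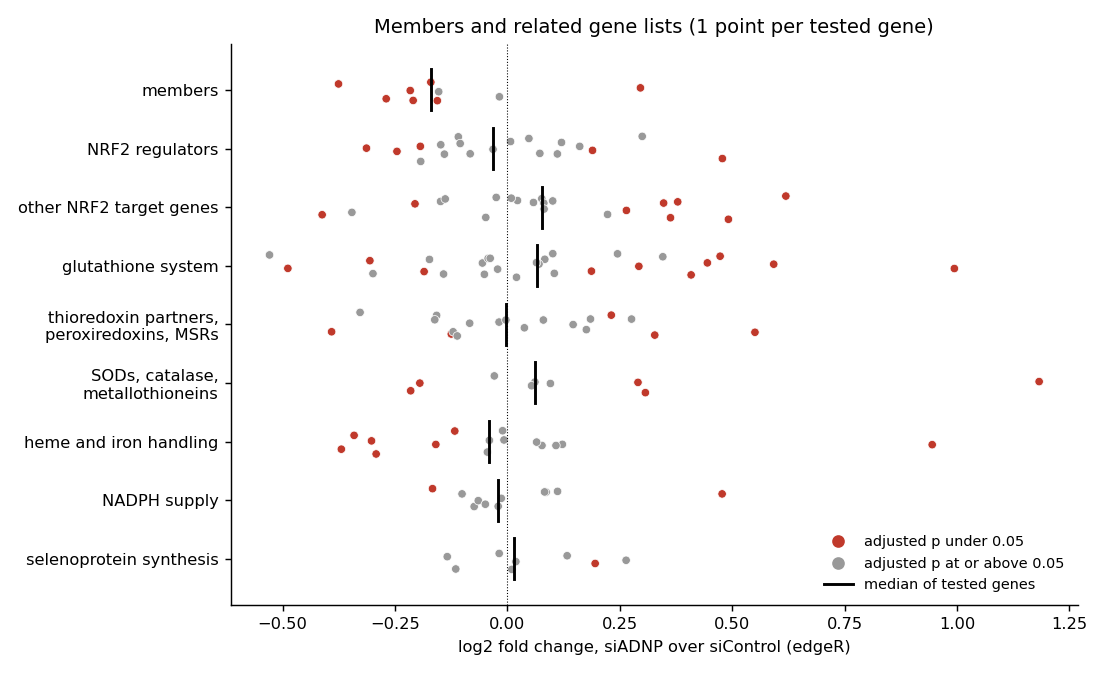
Log2 fold change, siADNP over siControl, of the 9 members and of each related list, with 1 point per tested gene, red where the adjusted p was under 0.05, and a black line at the median. The members have a median of -0.17, and those of the 8 related lists lie between -0.04 and 0.08.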

How the data were processed

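RNA was measured in 6 libraries, 3 per group. The labels' protocols name Trizol extraction of total RNA, a DNase step and a Nugen library kit. The authors deposited raw counts of reads per gene symbol, and log2-like variance-stabilized values that were used here in 1 alternative. Per the submitters' processing notes, STAR, HTSeq and DESeq2 were used on hg19, and the sources used here state no version, annotation or strand setting. Lines that name no gene, 53.5% to 55.7% of reads in no feature, 17.4% to 17.9% without a unique alignment and 0.455% to 0.500% ambiguous, were left out.

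The test was edgeR 4.0.16 in R 4.3.3 (TMM, filterByExpr with a minimum count of 10, glmQLFit, glmQLFTest), siADNP over siControl, two-sided, with Benjamini-Hochberg adjustment over all tested genes. Each SE is the log2 fold change over the square root of F. The code was tested on simulated counts. Alternatives were 3 other scalings, 2 other filters, DESeq2 1.42.0, limma 3.58.1 on the log2 values, the replicate number as a block, a GC offset without and with that block, and leaving out each library. GC content (90.0% of tested genes), lengths and exon overlaps came from GENCODE v29, a newer build. Between libraries of a group, chi-square per degree of freedom was 1.81 to 3.04, above sampling noise. Figures were drawn with matplotlib 3.10.9.

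The members and the 8 related lists were chosen with earlier results of these data known. Genes named are the members, ADNP, up to 4 called genes with the smallest p of each list, and the 3 genes closest in pattern to the member with the smallest p. KRT19, CD68, PTPRC, CDX1 and VIL1 are markers. TRIM16L, NQO2, PRDX1, SLC40A1, MT1X and MT2A were named after their values were seen. LUCAT1 and MSRB1 were not matched in the table.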

Additional observations from a re-analysis of the deposited data

How the results depend on the processing

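TXN, TXNRD1, SRXN1 and NQO1 were called lower in all 16 alternatives, and ADNP too. Leaving out 1 library gave 4 to 6 members lower and 0 to 1 higher. The log2 fold changes then ranged from -0.18 to -0.12 for NFE2L2, -0.047 to 0.019 for KEAP1, -0.19 to -0.14 for NQO1, 0.20 to 0.35 for HMOX1, -0.26 to -0.13 for GCLC, -0.25 to -0.04 for GCLM, -0.23 to -0.19 for TXNRD1, -0.28 to -0.24 for TXN, -0.44 to -0.32 for SRXN1 and -1.68 to -1.51 for ADNP. KEAP1, not called, changed sign to 0.019 without siControl replicate 3 and to 0.0071 with upper-quartile scaling. HMOX1 lost its call in DESeq2 (0.30), with the GC offset (0.22) and with the GC offset and replicate block (0.22), each leaving 0 members higher. Over the whole table DESeq2 called 1106 genes higher and 1079 lower, and leaving out 1 library 1470 to 1655 higher and 1307 to 1508 lower, against 1824 and 1714.

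No pairing by replicate number was seen: deviations of same-numbered libraries correlated with 0.0183, -0.0362 and -0.0289, and not every library matched its own number best. With 3 libraries per group, this cannot tell whether same-numbered cultures were handled together. With the replicate block 1694 genes were higher and 1542 lower, and 6 members lower and 1 higher as without it. NFE2L2 lost its call with the GC offset and replicate block together (-0.13, adjusted p = 0.0669), which left 5 members lower.

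Counts of the related lists are small and shifted. With DESeq2 there were 0 falls among other NRF2 targets, 3 rises in the glutathione system, 1 fall around thioredoxin, 1 rise among dismutases and metallothioneins, and 0 rises each in heme and iron handling and in selenoprotein synthesis. With the GC offset, alone or with the replicate block, regulators had 1 rise and the thioredoxin list 4 falls, and regulators 5 falls with the offset alone. Other targets had 1 fall with the replicate block, with or without the offset, and with library totals, and 0 with upper-quartile scaling. The thioredoxin list had 1 fall with the block. It had 5 rises and 1 fall with upper-quartile scaling or library totals, and heme and iron handling 2 rises with upper-quartile scaling. Leaving out 1 library gave 1 to 2 rises and 2 to 3 falls for regulators, 5 to 6 and 0 to 2 for other targets, 5 to 7 and 1 to 4 for glutathione, 3 to 4 and 1 to 2 for thioredoxin, 2 to 4 and 1 to 2 for dismutases and metallothioneins, 0 to 2 and 3 to 6 for heme and iron, 1 and 1 for NADPH supply, and 0 to 1 and 0 for selenoprotein synthesis. Of 432 alternatives for the 27 genes named from the lists, 16 lost the call and 0 changed sign. The cause of these shifts was not tested. With the longest transcript as length, siControl levels per kilobase were 71.0 for NFE2L2, 25.8 for KEAP1, 98.3 for NQO1, 28.2 for GCLC and 122 for TXNRD1. Counting error was largest for HMOX1, GCLM and SRXN1, the members with the fewest reads.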
